A study of Mus musculus with 6 samples.

Results

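Slc7a1, Slc7a2, Slc7a3, Slc7a6, Slc7a7 and Slc7a11 encode SLC7 transporters that carry cationic amino acids or cystine. These 6 protein-coding genes were taken by symbol from the 46983 genes counted in the cerebellum of C57BL/6J mice at postnatal day 60. The tissue came from 3 animals labelled Slc7a5-KO, with the genotype Tie2-Cre Slc7a5 fl/fl, and 3 animals labelled WT, with the genotype Tie2-Cre Slc7a5 fl/+. Both groups therefore carried the Cre, and the WT animals carried 1 floxed allele. Tie2-Cre acts in endothelial and blood-forming lineages, whereas the RNA came from whole cerebellum, which holds many other cell types. In such bulk tissue, a change in the number of cells of a type and a change in RNA per cell cannot be told apart.

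Cells take up arginine, lysine and ornithine through the system y+ carriers, which Slc7a1 (CAT1), Slc7a2 (CAT2) and Slc7a3 (CAT3) encode and which work as single proteins. Slc7a7 (y+LAT1) and Slc7a6 (y+LAT2) are light chains that join the heavy chain encoded by Slc3a2 and exchange cationic for neutral amino acids. Slc7a11 (xCT) joins the same heavy chain and imports cystine, a source of cysteine for glutathione, in exchange for glutamate. Slc7a5 encodes LAT1, the large neutral amino acid transporter of the blood-brain barrier that the series targets, and it also pairs with Slc3a2. Transcription of Slc7a1, Slc7a3 and Slc7a11 is known to rise when amino acids are short, in part through the transcription factor ATF4.

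Library depth was 13438182 to 31077690 gene reads for Slc7a5-KO-labelled animals and 27672205 to 34160856 for WT, with replicate 3 labelled Slc7a5-KO the shallowest. Slc7a5 itself showed no drop under the Slc7a5-KO label, at 164, 59.4 and 118 CPM (reads scaled to library size), against 72.0, 66.3 and 43.2 CPM in WT. Which exons the floxed allele removes was not known here, so these reads do not check the deletion, and directions follow the labels. Markers of Purkinje cells and granule neurons of the cerebellum were present, with Pcp2 at 369 to 472 CPM in Slc7a5-KO-labelled animals and 407 to 623 CPM in WT. Gabra6 lay at 442 to 816 CPM in Slc7a5-KO-labelled animals and 648 to 1076 CPM in WT. Choroid plexus markers summed to 32.9 CPM in replicate 2 labelled Slc7a5-KO and to 2341 to 5624 CPM in the other 5 libraries. By Xist and Y-linked genes, replicates 1 and 3 labelled Slc7a5-KO and WT replicate 2 were female and the other 3 animals male.

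The promoters that RefSeq lists for 4 of the 6 genes (GRCm38.p6, 10 windows) were searched for the C/EBP-ATF element, through which ATF4 acts, as TGATG, any base, then AA, on both strands. The window searched was the 250 bases before each transcript start. Slc7a2 and Slc7a3 were not in that table. The Slc7a11 promoter is shown because it held 2 matches, in opposite orientations, and the first Slc7a1 promoter because that gene had the clearest change and held none. Capitals mark the C/EBP-ATF matches in Slc7a11 (chr3:50443614-50443863, minus strand) and, in Slc7a1 (chr5:148399905-148400154, minus strand), the only match to the NRF2 antioxidant element, searched as TGAC, any 3 bases, then GC, on both strands.
Slc7a11: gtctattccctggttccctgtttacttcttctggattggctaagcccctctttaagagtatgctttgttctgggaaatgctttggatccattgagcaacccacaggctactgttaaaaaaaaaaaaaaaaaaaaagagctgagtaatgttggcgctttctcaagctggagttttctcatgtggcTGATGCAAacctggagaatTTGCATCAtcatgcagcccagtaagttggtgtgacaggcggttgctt
Slc7a1: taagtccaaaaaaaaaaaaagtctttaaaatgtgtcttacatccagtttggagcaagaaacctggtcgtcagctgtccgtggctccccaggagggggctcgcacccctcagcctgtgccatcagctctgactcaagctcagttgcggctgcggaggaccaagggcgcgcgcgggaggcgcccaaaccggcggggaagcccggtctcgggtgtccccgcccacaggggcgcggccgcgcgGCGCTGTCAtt

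The Slc7a11 matches lay 66 to 59 and 47 to 40 bases before the transcript start. Of the 32851 RefSeq promoter windows of the same length, 3.45% held at least 1 C/EBP-ATF match and 13 held 2 or more. The Slc7a1 antioxidant match lay 11 to 3 bases before the start, and 10.2% of all windows held that motif. Slc7a7 held 1 C/EBP-ATF match before each of 2 of its starts, shown here with 10 bases on either side, or 7 where the window began.
Slc7a7 at chr14:54418078-54418085, minus strand: cgcttgggctTGATGAAAggttcactgg
Slc7a7 at chr14:54417938-54417945, minus strand: tagaagcTGATGCAAcagcttcccc
Neither Slc7a6 window held a C/EBP-ATF match, and 1 held an antioxidant match. No match overlapped another. A match is a run of letters and does not show that a factor binds there, and a gene without a match may hold the element outside the window.

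Among the y+ carriers, Slc7a1 rose about 2-fold in Slc7a5-KO-labelled animals and was the only one of the 6 genes called over all genes tested. Slc7a1 (ENSMUSG00000041313.14, GRCm38 chromosome 5, 148327410 to 148399904, minus strand), the broadly used arginine and lysine carrier, stood at 97.2, 106 and 89.4 CPM in replicates 1 to 3 labelled Slc7a5-KO, against 47.7, 38.0 and 54.1 CPM in WT. All 3 animals labelled Slc7a5-KO lay above all 3 WT animals, as in 5.93% of all genes tested. The gap between the nearest animals was 35.3 CPM. The fold change was 2.10, a log2 value of 1.07 ± 0.15 (SE), with a 95% interval of 0.75 to 1.39 (edgeR adjusted p = 0.0055). By edgeR 0.0475% of the 16851 genes tested were called higher, and Slc7a1 was the fourth of all genes by p. It kept its call without any 1 library, with log2 values of 0.94 to 1.19 and edgeR adjusted p of 0.010 to 0.044. Slc7a1 is known in brain endothelium, and 10 endothelial markers summed to 348 to 415 CPM in Slc7a5-KO-labelled animals and 322 to 401 CPM in WT. Over all genes tested, 8477 lay above 0 and 8374 below, which is the background for the later marker lists too. Of the 10 endothelial markers none was called, 7 lay above 0, and their median log2 fold change was 0.17. Their part in the Slc7a1 result was not tested.

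Slc7a3 had a fold change of similar size but varied more between animals, and edgeR with its filter on low counts did not call it. Slc7a3 (ENSMUSG00000031297.14, chromosome X, 101079210 to 101086020, minus strand), the carrier of this set best known from neurons, stood at 87.2, 54.7 and 46.3 CPM in Slc7a5-KO-labelled animals, against 27.0, 38.0 and 26.2 CPM in WT. The groups did not overlap, but replicate 1 labelled Slc7a5-KO lay far above the other libraries and the gap between the nearest animals was 8.35 CPM. Of all genes tested, 5.93% separated the groups in this direction. The log2 fold change was 1.05 ± 0.22, with a 95% interval of 0.59 to 1.51 (edgeR adjusted p = 0.16). Without replicate 1 labelled Slc7a5-KO it was 0.74 (edgeR adjusted p = 0.22).

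The call on Slc7a3 depended on the test and on the filter. Without the filter on low counts edgeR called it (edgeR adjusted p = 2.3e-06), in a fit that called 55 of 24587 genes higher. Slc7a3 stayed at 1.05 on the log2 scale there, with a standard error of 0.17, against 0.22 with the filter. DESeq2 put it at 1.04 on the log2 scale, with 0.0061 as adjusted p, in a fit that called 0.231% of genes higher. In the authors' deposited table, made with DESeq2, 0.625% of genes with an adjusted p were called higher. In the authors' deposited table the unshrunken log2 value of Slc7a3 was 1.04 (adjusted p = 0.00049) and that of Slc7a1 was 1.06 (adjusted p = 5.3e-10). Slc7a3 is X-linked. In females it stood at 87.2 and 46.3 CPM in replicates 1 and 3 labelled Slc7a5-KO and at 38.0 CPM in WT replicate 2. In males it stood at 54.7 CPM in replicate 2 labelled Slc7a5-KO and at 27.0 and 26.2 CPM in WT replicates 1 and 3. With sex as a term the log2 value was 0.93 (edgeR adjusted p = 0.15). Over all genes tested, 8477 lay above 0, 8374 lay below 0 and 0.0475% were called higher. Purkinje cell markers summed to 3851 to 5714 CPM in Slc7a5-KO-labelled animals and 5504 to 6740 CPM in WT. All 8 of them lay below 0 and none was called. Granule neuron markers summed to 3762 to 5929 CPM in Slc7a5-KO-labelled animals and 4254 to 6293 CPM in WT, with 6 of 8 below 0 and none called. Markers of cerebellar interneurons summed to 933 to 1040 CPM in Slc7a5-KO-labelled animals and 864 to 1078 CPM in WT. Of these 8, 5 lay above 0 and none was called. The part of these markers in the Slc7a3 values was not tested.

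Slc7a2 was not called and lay close to 0. Slc7a2 (ENSMUSG00000031596.15, chromosome 8, 40862396 to 40922308, plus strand) encodes a carrier whose splice forms differ in their affinity for arginine, and these gene counts do not separate them. It stood at 39.3, 47.2 and 50.4 CPM in Slc7a5-KO-labelled animals, against 42.8, 51.3 and 41.8 CPM in WT. The groups overlapped, and their log2 difference was 0.0097 ± 0.16 (edgeR adjusted p = 1.00). Its 95% interval, -0.32 to 0.34, does not reach the lower bound for Slc7a1.

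**Figure D1:**
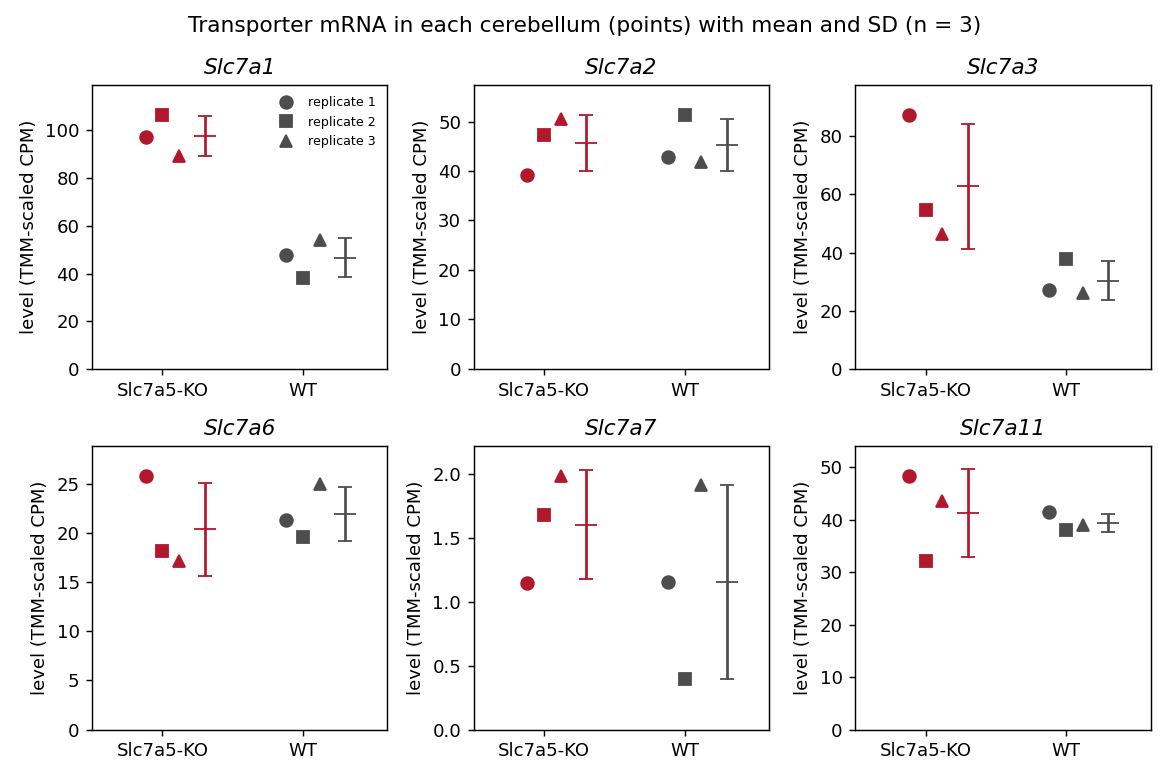
Level of each transporter mRNA (y axes, TMM-scaled CPM, starting at 0) in Slc7a5-KO-labelled animals (red, left) and WT (grey, right). Points are animals, shaped by replicate number, and bars give the mean and SD of 3 animals. Slc7a1 and Slc7a3 separate the groups without overlap and the other 4 genes do not. Of all genes tested, 5.93% separate the groups with Slc7a5-KO-labelled animals higher.

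Among the light chains that pair with Slc3a2, none was called. Slc7a6 (ENSMUSG00000031904.4, chromosome 8, 106168857 to 106198706, plus strand), the y+L exchanger known from brain and other tissues, stood at 25.8, 18.2 and 17.1 CPM in Slc7a5-KO-labelled animals, against 21.3, 19.5 and 24.9 CPM in WT. Replicate 1 labelled Slc7a5-KO held the highest value and the other 2 so labelled held the lowest, so the groups overlapped. The log2 fold change was -0.10 ± 0.21, with a 95% interval of -0.55 to 0.34 (edgeR adjusted p = 0.98).

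Slc7a11 (ENSMUSG00000027737.10, chromosome 3, 49892526 to 50443614, minus strand) stood at 48.4, 32.1 and 43.5 CPM in Slc7a5-KO-labelled animals, against 41.4, 38.0 and 39.0 CPM in WT. The Slc7a5-KO-labelled animals held both the highest and the lowest value, and the WT animals lay close together. The log2 fold change was 0.066 ± 0.17, with a 95% interval of -0.29 to 0.43 (edgeR adjusted p = 0.99). Replicate 2 labelled Slc7a5-KO, the lowest, was also the library almost without choroid plexus markers. The other libraries did not follow that order. Replicate 1 so labelled, the highest for Slc7a11, had a choroid plexus sum of 2341 CPM, and WT replicate 2, at 38.0 CPM for Slc7a11, had 5624 CPM. Meningeal fibroblasts are known for Slc7a11 in mouse brain, and 12 of their markers summed to 240, 157 and 260 CPM in replicates 1 to 3 labelled Slc7a5-KO and to 292, 264 and 208 CPM in WT. Of these 12, none was called and 5 lay above 0. Markers of astrocytes and Bergmann glia summed to 4093 to 4240 CPM in Slc7a5-KO-labelled animals and 4339 to 4858 CPM in WT. Of these 10, 3 lay above 0, 7 lay below 0 and none was called. The part of any of these cell types in the Slc7a11 values was not tested. Its log2 value was 0.22 without replicate 2 labelled Slc7a5-KO (edgeR adjusted p = 0.94), -0.066 without replicate 1 so labelled (edgeR adjusted p = 0.98) and -0.024 with a sex term (edgeR adjusted p = 0.99).

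Slc7a7 (ENSMUSG00000000958.9, chromosome 14, 54369442 to 54417780, minus strand), the y+L exchanger of macrophages and gut, was barely detected. It had 37, 45 and 27 reads in Slc7a5-KO-labelled animals, against 41, 11 and 53 reads in WT. Scaled to depth this was 1.15, 1.68 and 1.99 CPM in Slc7a5-KO-labelled animals, against 1.16, 0.40 and 1.92 CPM in WT. The groups overlapped and the log2 fold change was 0.46 ± 0.81, with a 95% interval of -1.23 to 2.15 (edgeR adjusted p = 0.98). That interval includes both 0 and the value of Slc7a1, and the coefficient of variation was 26.5% among Slc7a5-KO-labelled animals and 65.7% among WT animals. Without WT replicate 2 the value was 0.057 and without WT replicate 3 it was 1.03, against 1.00 with a sex term and 0.21 from unstranded counts. Slc7a7 and Oxa1l, on the opposite strand, overlap at their 3′ ends and share 232 exonic bases in GENCODE M21. Reads on the strand opposite to Slc7a7 numbered 58, 31 and 9 in Slc7a5-KO-labelled animals and 24, 74 and 51 in WT and made up 25.0% to 87.1% of the reads on both strands, whereas in the other 5 genes at most 0.848% of reads lay on the opposite strand. Markers of microglia and macrophages summed to 406 to 474 CPM in Slc7a5-KO-labelled animals and 329 to 419 CPM in WT. Of these 12 markers, 10 lay above 0 and none was called, and their part in the Slc7a7 values was not tested.

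**Figure D2:**
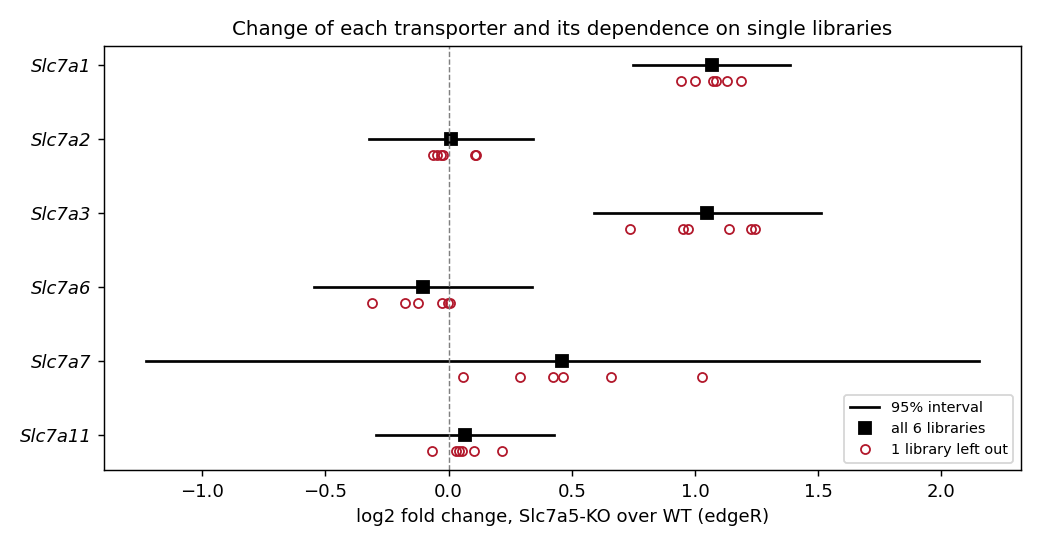
Log2 fold change of each transporter, Slc7a5-KO-labelled animals over WT (x axis, edgeR). Squares use all 6 libraries, lines are 95% intervals and open circles are fits with 1 library left out. Slc7a1 and Slc7a3 lie near 1 in every fit (0.94 to 1.19 and 0.74 to 1.25), Slc7a7 has the widest interval and the other 3 genes lie around 0.

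Per length, Slc7a3 was the highest of the 6 mRNAs in both groups. In TPM (length-scaled abundance) over exon lengths of GENCODE M21, Slc7a3 stood at 76.9, 41.9 and 37.4 TPM in Slc7a5-KO-labelled animals, against 23.3, 25.8 and 21.2 TPM in WT. Slc7a1 came next in Slc7a5-KO-labelled animals, at 26.2 ± 2.26 TPM, against 12.1 ± 3.19 TPM in WT (SD, n = 3 each). Slc7a2 stood at 15.4 ± 1.32 TPM in Slc7a5-KO-labelled animals and 14.6 ± 0.64 TPM in WT. Slc7a6 stood at 13.9 ± 4.22 TPM in Slc7a5-KO-labelled animals and 14.3 ± 2.97 TPM in WT. In WT the levels of Slc7a2, Slc7a6 and Slc7a1 were within their spread of each other. Slc7a11 stood at 9.27 ± 2.47 TPM in Slc7a5-KO-labelled animals and 8.44 ± 1.35 TPM in WT, and Slc7a7 at 1.48 ± 0.34 TPM in Slc7a5-KO-labelled animals and 1.08 ± 0.74 TPM in WT. Slc7a11 and Slc7a1 have the longest exon models, 13922 and 11530 bases, so their TPM would be higher if shorter isoforms prevailed.

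The 3 y+ carriers summed to 119, 83.6 and 78.0 TPM in Slc7a5-KO-labelled animals, against 52.1, 48.8 and 49.6 TPM in WT. Within that sum, Slc7a2 made up at most 21.6% in Slc7a5-KO-labelled animals and at least 28.3% in WT. Its own mean level was similar, at 15.4 and 14.6 TPM, so its share was lower because the sum was higher. Slc7a1 made up 23.6% to 32.0% in Slc7a5-KO-labelled animals and 17.4% to 29.0% in WT, which overlapped. Slc7a3 made up 48.0% to 64.4% in Slc7a5-KO-labelled animals and 42.7% to 53.0% in WT, so its shares overlapped.

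**Figure D3:**
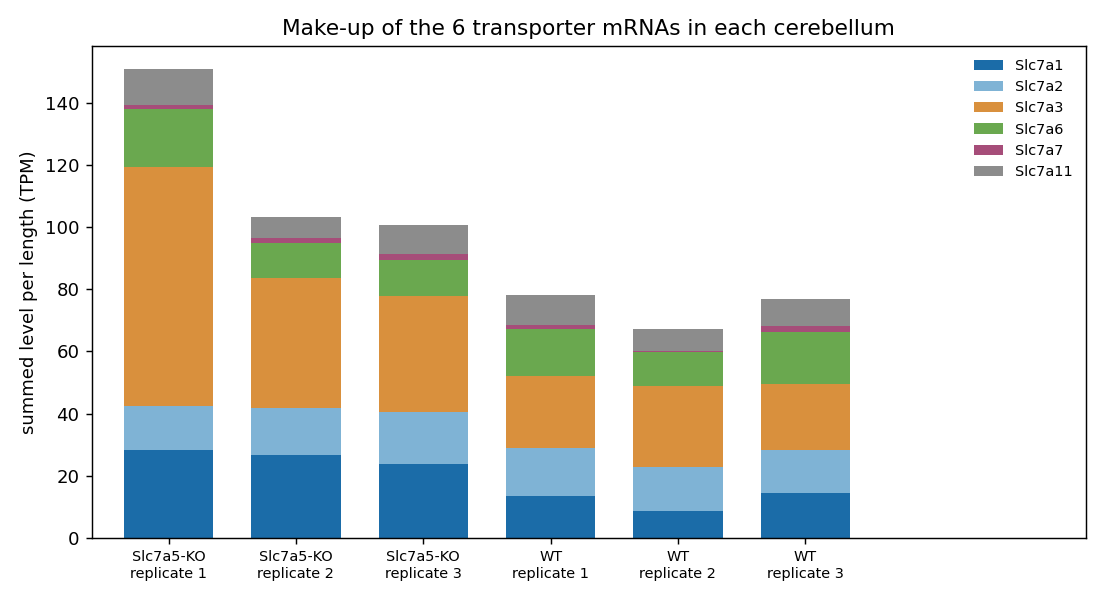
Summed level per length of the 6 transporter mRNAs (y axis, TPM) in each animal, Slc7a5-KO-labelled animals left of WT. The stacks reach 101 to 151 TPM in Slc7a5-KO-labelled animals and 67.1 to 78.2 TPM in WT, and the Slc7a1 and Slc7a3 segments account for most of the difference.

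Whether the 6 genes moved unequally was asked through the log2 ratio of each pair within an animal, taken from log2 CPM. Library scaling cancels in this ratio except through the prior count of 2, which weighs most on Slc7a7 with its few reads. Of 15 pairs, 6 separated the groups, and all 6 set Slc7a1 or Slc7a3 against Slc7a2, Slc7a6 or Slc7a11. The pairs share genes, and Slc7a1 and Slc7a3 each separated the groups on their own, so these are not 6 independent observations. The share of separated ratios over all gene pairs was not computed. The log2 ratio of Slc7a1 to Slc7a2 was 1.31, 1.17 and 0.82 in Slc7a5-KO-labelled animals, against 0.16, -0.43 and 0.37 in WT, a difference of 1.07. That of Slc7a1 to Slc7a11 was 1.01, 1.73 and 1.04 in Slc7a5-KO-labelled animals, against 0.20, -0.0014 and 0.47 in WT, a difference of 1.03. Each of the 6 pairs had a 2-sided exact permutation p of 0.1, the smallest that 3 against 3 animals allow, or 0.25 adjusted over the 15 pairs. Separation of the groups fixes that p, so the test adds nothing to it and does not decide whether the genes moved unequally. The ratio of Slc7a1 to Slc7a3 was 0.16, 0.96 and 0.95 in Slc7a5-KO-labelled animals, against 0.82, 0.00 and 1.05 in WT, a difference of 0.066 (2-sided exact permutation p = 0.7). WT replicate 2, the WT female, had 1052 reads for each of these carriers, and it held the lowest Slc7a1 and the highest Slc7a3 of the WT animals.

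The shared heavy chain and the rest of the family were not called. Slc3a2 stood at 139, 105 and 118 CPM in Slc7a5-KO-labelled animals, against 97.5, 115 and 87.4 CPM in WT, which is 0.27 ± 0.14 on the log2 scale (edgeR adjusted p = 0.83). Slc3a1, the heavy chain of kidney and gut, was at or below 1.08 CPM in every library (log2 0.87 ± 1.26, edgeR adjusted p = 0.97). Slc7a5, at the levels given above, had the highest value of the rest of the family, 0.91 ± 0.42 on the log2 scale (edgeR adjusted p = 0.84), with overlapping groups. Slc7a4, a CAT-like family member whose substrate is not settled, stood at 17.0, 18.9 and 20.1 CPM in Slc7a5-KO-labelled animals, against 16.7, 12.6 and 12.8 CPM in WT. Its groups separated by little, and it differed by 0.41 ± 0.22 on the log2 scale (edgeR adjusted p = 0.83). Slc7a14, a lysosomal CAT-like protein of neurons, had a log2 fold change of -0.0034 ± 0.14, Slc7a8 (LAT2) 0.14 ± 0.16 and Slc7a10, a carrier of small neutral amino acids, -0.046 ± 0.17. Their edgeR adjusted p was 0.96 to 1.00. Slc7a9, Slc7a12 and Slc7a13 had 0 reads in every library, and Slc7a15 had reads in WT replicate 2 only, at 0.22 CPM.

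Lists of genes related to these amino acids inside the cell were measured next, and no gene in them was called. Over all 16851 genes tested 0.0475% were called higher and 0 lower, so lists of this length would seldom hold a called gene. The median log2 fold change over all genes tested was 0.0022, with 8477 above 0 and 8374 below. The 23 enzymes of arginine, nitric oxide, creatine and polyamine metabolism had a median of -0.037, with 10 above 0 and 13 below. Ass1, which with Asl rebuilds arginine from citrulline, had the smallest p of that list, at 3.93, 6.35 and 7.79 CPM in Slc7a5-KO-labelled animals, against 2.91, 2.42 and 2.46 CPM in WT (log2 1.20 ± 0.39, edgeR adjusted p = 0.59). Smox, spermine oxidase, came next with -0.45 ± 0.17 (edgeR adjusted p = 0.67). Nos1, the neuronal nitric oxide synthase that uses arginine, stood at 168 ± 24.8 CPM in Slc7a5-KO-labelled animals and 178 ± 14.5 CPM in WT (log2 -0.087 ± 0.13).

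The 6 lysine breakdown enzymes had a median of 0.062, with 4 above 0. Dhtkd1, with the smallest p of that list, had 0.41 ± 0.35, and Aass, which starts lysine breakdown, came next with -0.47 ± 0.40 (edgeR adjusted p = 0.94 each). The 8 genes listed as organelle carriers of cationic amino acids and cystine had a median of 0.0076, with 4 above 0. Slc38a7, on that list although it exports glutamine from lysosomes, stood at 47.9, 51.4 and 41.7 CPM in Slc7a5-KO-labelled animals, against 33.7, 33.7 and 36.5 CPM in WT (log2 0.44 ± 0.16, edgeR adjusted p = 0.64). Ctns, the lysosomal cystine exporter, had 0.23 ± 0.18 (edgeR adjusted p = 0.93).

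Downstream of cystine import, the 14 genes of cystine use and glutathione had a median of 0.054, with 9 above 0. Gclm, a subunit of the enzyme that starts glutathione synthesis, had -0.30 ± 0.17, and Slc1a1, a carrier of glutamate and cysteine in neurons, 0.28 ± 0.18 (edgeR adjusted p = 0.86 and 0.88). The 11 NRF2 targets, which include Slc7a11 and NRF2 itself (Nfe2l2), had a median of 0.094, with 7 above 0. Hmox1, the inducible haem oxygenase, stood at 15.8, 21.9 and 24.7 CPM in Slc7a5-KO-labelled animals, against 13.5, 10.7 and 13.2 CPM in WT (log2 0.73 ± 0.23, edgeR adjusted p = 0.55). Nqo1, a quinone reductase of the same list, had -0.42 ± 0.23 (edgeR adjusted p = 0.84).

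**Figure D4:**
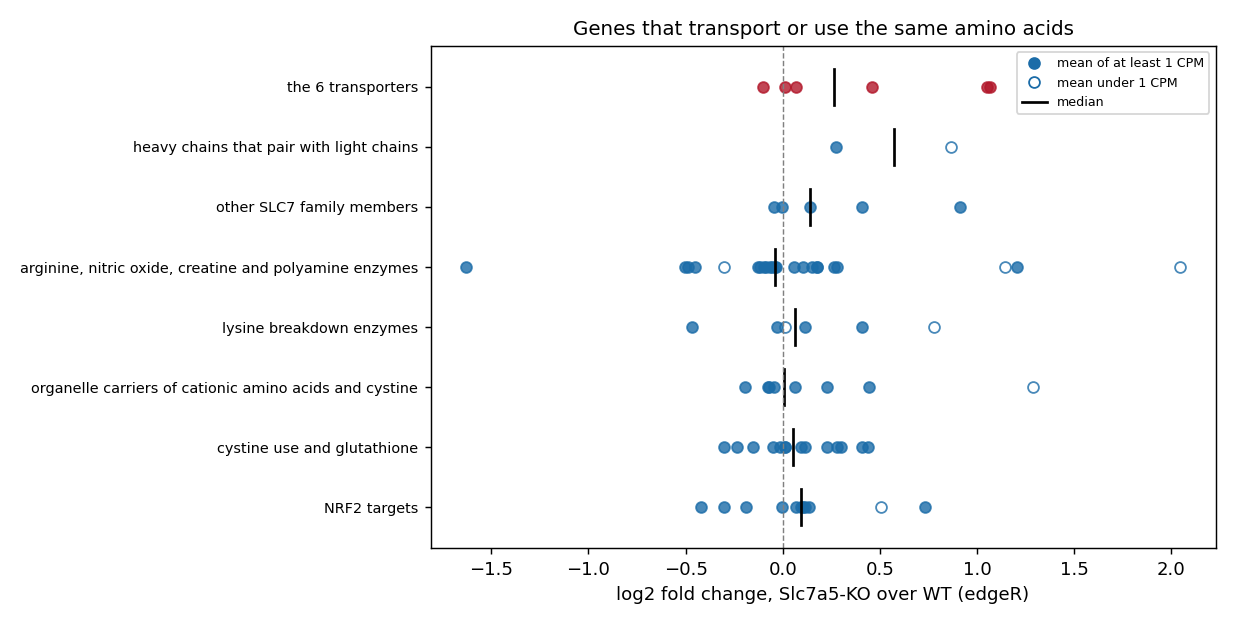
Log2 fold change, Slc7a5-KO-labelled animals over WT (x axis, edgeR), of the 6 transporters (red) and of genes in related lists (blue). Each circle is a gene, open where its mean is under 1 CPM, and black lines are medians. Slc7a1 and Slc7a3, nearly coincident at 1.07 and 1.05, lie at the right of the genes with a mean of at least 1 CPM, beside Ass1 at 1.20.

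The genes with the most similar profile over the 6 libraries, by Pearson correlation of log2 CPM among 13505 other protein-coding genes with a mean of at least 1 CPM, differed for each carrier. For Slc7a1 they were Ncam1, Nom1 and Sox2 (r of 0.98 to 0.99), for Slc7a3 A830018L16Rik, Ypel3 and Eif3c (0.97 to 0.99), and for Slc7a2 Acot9, Tmed3 and Gnai2 (0.99 to 1.00). For Slc7a6 they were Srek1, Rngtt and Nos1 (0.98 to 0.99), for Slc7a11 9330161L09Rik, Dusp11 and Arhgap31 (0.99 to 1.00), and for Slc7a7 Uhrf1bp1, Wwp2 and Lrp2 (0.99 to 1.00). With 6 points such values arise for many genes, and 0.56% to 1.94% of them exceeded an r of 0.9 with a given carrier. No gene was among the closest 3 of more than 1 carrier.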

How the data were processed

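Per the labels' protocols, libraries were made from total RNA with the SENSE mRNA-Seq V2 kit. Per the submitters' processing notes, STAR 2.5.4 and the build GRCm38 (mm10) were used. No annotation release or duplicate removal is stated, and without molecular identifiers counts may include PCR copies. The deposited tables hold raw read counts per gene, and the reverse-strand count was used (94.8% to 95.8% of reads of both strand columns). Reads of no gene or several genes (19.5% to 22.2% of aligned reads) were left out. The authors' deposited comparison (DESeq2 1.10.1, R 3.2.4, per the submitters' processing notes) gives a mean normalised signal, log2 fold changes, a Wald score and p-values, per the file headers.

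Symbols matched 46488 of 46983 identifiers, and coordinates and lengths come from GENCODE M21 (GRCm38), which may differ from the authors' release. Genes passing filterByExpr (minimum count 10, total 15; 16851 genes, all 6 transporters among them) had TMM scaling and a test in edgeR 4.0.16 in R 4.3.3 (quasi-likelihood, robust, 2-sided, Benjamini-Hochberg over all genes, false discovery rate 0.05). The fit was also run on simulated data, whose outcome is not given here, and no conclusion rests on it. CPM are TMM-scaled, log2 CPM used a prior count of 2, and ± after a log2 fold change is the standard error (fold change over the square root of F). The genes, lists, named-gene rule and tests were chosen with earlier results of these data known. By that rule each list gives its called genes or else the 2 with the smallest p. Nos1 was picked with its values in view. The settings varied were scaling, no filter, the unstranded column, DESeq2 1.42.0, limma-voom 3.58.1, a replicate block, a sex term and leaving out each library. DESeq2 with its older prior was added after seeing the data. Each library, which has its own number in the labels, is taken as 1 animal. The labels do not state this. By Xist and Y-linked genes each group held both sexes, so neither came from 1 animal, but libraries of the same sex may share an animal. The p-values measure the spread between these samples, which may be technical in part.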

Additional observations from a re-analysis of the deposited data

How the results depend on the processing

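Slc7a1 kept its call under all 9 other settings and without any 1 library, with log2 values of 0.94 to 1.19. Slc7a3 kept its direction in all of them, at 0.74 to 1.25 with 1 library left out, and passed the threshold in 3 settings. These were no filter on low counts (1.05), DESeq2 (1.04) and DESeq2 with its older prior (1.04). Slc7a2 turned to -0.013 by limma-voom and -0.018 with a sex term, and ran from -0.064 to 0.11 with 1 library left out. Slc7a11 turned to -0.024 with a sex term, and ran from -0.066 to 0.22. Slc7a6 ran from -0.31 to 0.0065 and Slc7a7 from 0.057 to 1.03. The count of genes called was 8, against 71 without a filter, 44 by DESeq2, 43 under DESeq2's older prior, and 16 when sex was a term. With 1 library left out it was 3 without WT replicate 3, 5 without WT replicate 1 or replicate 3 labelled Slc7a5-KO, and 20 without replicate 1 or 2 labelled Slc7a5-KO. The cause of these shifts was not tested. With the replicate number as a block, 6 genes were called and Slc7a1 was at 1.08. Same-numbered animals did not deviate together (correlations of -0.059 to -0.027), so the block pairs nothing. Slc7a7 had 11 to 53 reads a library and varied most between WT animals, and what depth and animals each add to its error was not separated.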
